A study of Mus musculus with 19 samples.

Results

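Saa3, Lcn2, S100a8, S100a9, Slpi, Ptx3 and Hp are 7 of the 27998 genes counted at the site of a traumatic tendon injury that goes on to form heterotopic bone. They were picked by name for their levels across cell lineages and days, so those levels are described below without a test. The 7 genes were tested in the comparison with the peptide p7N3, which that description does not name, although earlier results of all libraries were known when they were picked. There were 19 single cell libraries of the tenotomy site. Of the mice with a dorsal scald burn and Achilles tenotomy, day 3 had 3 libraries, while days 7 and 21 had 4 each, as had day 0 and the injured mice that were also given p7N3. p7N3 is a peptide that activates CD47, injected into the peritoneum each day at 10 mg/kg from 3 days before to 3 days after the injury. The libraries with p7N3 are compared with those of day 7. The labels give no harvest day for replicate 4 with p7N3. None names a vehicle for the mice without the peptide, which the paper gives as PBS. The labels carry the burn for day 0 as well. The paper places that group before the injury. The 4 libraries numbered replicate 4 (day 0, day 7, day 21 and p7N3) carry a label that names both C57 and LysmCre/Tgfb1fx/fx mice, the latter lacking Tgfb1 where Lysm-driven Cre is active, namely in myeloid cells. The labels give no strain for the other libraries, and the paper's methods name C57BL/6J. No library is assigned to the mutant genotype, so a difference of genotype could not be set apart. Each library was treated as a replicate, and the p-values measure the spread between libraries.

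Serum amyloid A 3 (Saa3), haptoglobin (Hp), lipocalin 2 (Lcn2) and the long pentraxin Ptx3 belong to the acute phase response, in which interleukin 1, interleukin 6 and tumour necrosis factor raise secreted defence proteins through NF-kappaB, STAT3 and C/EBP factors. These proteins can be made locally by fibroblasts, macrophages and endothelium. S100a8 and S100a9 encode the subunits of calprotectin, an alarmin that fills the cytosol of neutrophils and binds calcium, zinc and manganese, and that signals through TLR4 when released. Lcn2 withholds iron from bacteria by binding their siderophores, Hp captures free haemoglobin, Ptx3 opsonizes microbes and binds hyaluronan-rich matrix, and Slpi inhibits neutrophil elastase and other serine proteases.

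The promoters are shown because all 7 genes had a higher mean at day 3 than at day 0, and C/EBP factors are among the regulators of this response. A RefSeq promoter sequence (GRCm38.p6) was matched for 6 of the 7 genes, Hp being the one that was not matched. The letters TTGCNNAA, a form of the C/EBP motif, were searched on both strands of the 250 bases before the start. They stood in 5 of these 6 genes, and in 9.56% of 32851 promoters of that length. The match is in capitals in each line, and where it lies on the other strand the capitals show its reverse complement. Saa3 is printed over 200 bases and the others over 40.
Saa3, chr7:46715727-46715926, minus strand: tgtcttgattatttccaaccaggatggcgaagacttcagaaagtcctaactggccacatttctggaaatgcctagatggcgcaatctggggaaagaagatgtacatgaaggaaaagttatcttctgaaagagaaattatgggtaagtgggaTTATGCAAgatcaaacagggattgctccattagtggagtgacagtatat
Lcn2, chr2:32387932-32387971, minus strand: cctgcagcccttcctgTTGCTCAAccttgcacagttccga
Ptx3, chr3:66219814-66219853, plus strand: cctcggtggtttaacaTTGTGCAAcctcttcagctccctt
S100a9, chr3:90695932-90695971, minus strand: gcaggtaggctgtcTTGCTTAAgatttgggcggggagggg
Slpi, chr2:164356718-164356757, minus strand: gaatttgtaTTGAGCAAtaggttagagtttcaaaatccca
The match began 57 bases before the start in Ptx3, 99 in Saa3, 216 in Lcn2, 236 in S100a9 and 241 in Slpi. S100a8 had none, and it was the single member with the letters TATAAA, 30 bases before its start, which 12.4% of promoters held. A form of the NF-kappaB motif with 10 letters (in 4.11% of promoters) and TTCCNGGAA (a form of the STAT motif, in 0.913%) stood in 0 of the 6. These are matches of letters and do not show a bound factor. In GENCODE vM21 on GRCm38, S100a8 (chr3:90668978-90670035, plus strand) and S100a9 (chr3:90692632-90695721, minus strand) are neighbours on chromosome 3. Ptx3 lies at chr3:66219910-66225805 (plus strand), Lcn2 at chr2:32384633-32388252 (minus strand) and Slpi at chr2:164354070-164389095 (minus strand). Saa3 lies at chr7:46711998-46715700 and Hp at chr8:109575128-109579172, both on the minus strand. The windows printed for Lcn2 and Slpi lie within these GENCODE spans, because they are placed on the RefSeq starts.

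A molecular identifier (UMI) marks each captured transcript, which counts once whatever its length, and levels are given as CPM, the gene's count scaled to the same total of UMIs for every sum of cells. A barcode was kept as a cell from 500 genes upwards and with mitochondrial UMIs of no more than 25%, which gave 39541 cells, 571 to 3668 in a library. The libraries of day 0 held 3019467 to 5383855 UMIs against 11064153 to 39870492 in the others, so that low levels are least precise at day 0. Cells were clustered without these genes and named from marker lists, and 721 cells stayed unnamed. All 8 markers were found in stromal-like clusters, 7 or 8 of 8 in granulocyte-like clusters and 11 or 12 of 12 in monocyte/macrophage-like clusters. The tenocyte-like cluster carried 4 of 5 tendon markers but had 6 cells at day 0. A pair of libraries shared at most 22 cell barcodes, or 1.26% of the smaller library. Doublets were left in.

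Saa3 was the gene that went from nothing to high levels. Over all kept cells of a library, it had 0 UMIs in each of the 4 day 0 libraries, and 323 ± 98.5 CPM (SD, n = 3) at day 3, at least 1812-fold higher against a floor of 3 counts over the group. It stood at 69.4 ± 20.8 CPM (n = 4) at day 7 and 97.8 ± 123 CPM (n = 4) at day 21. S100a8 had the highest level of the 7 at day 3, with 1630.2, 1853 and 2938 CPM in the 3 libraries against 107 ± 105 CPM at day 0. It was back at 125 ± 61.9 CPM at day 7 and 27.0 ± 15.4 CPM at day 21, and S100a9 followed it with 88.6 ± 79.3, 1514 ± 487, 94.5 ± 37.6 and 16.0 ± 8.17 CPM on the 4 days in order. The calprotectin genes thus had lower means at day 21 than at day 0, within the spread of the day 0 libraries. Slpi went from 14.3 ± 12.9 CPM at day 0 to 432 ± 149 at day 3, and still stood at 256 ± 53.2 CPM at day 7 and 143 ± 60.9 CPM at day 21. Hp went from 13.7 ± 5.01 to 328 ± 91.7 CPM and remained at 166 ± 42.3 and 154 ± 69.4 CPM. Their day 21 means were 10.0-fold and 11.2-fold those of day 0. Ptx3 was nearly level from day 3 (279 ± 11.5 CPM) to day 7 (272 ± 75.4 CPM), and stood at 68.2 ± 13.4 CPM at day 21, beside 41.5 ± 22.0 CPM at day 0. Lcn2 had the smallest step, from 28.4 ± 13.3 to 110 ± 13.1 CPM (3.86-fold of the means), and was at 16.6 ± 7.36 CPM at day 7 and 13.7 ± 4.30 CPM at day 21. In such whole-library sums, fewer cells of a type and less RNA per cell cannot be told apart.

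**Figure D1:**
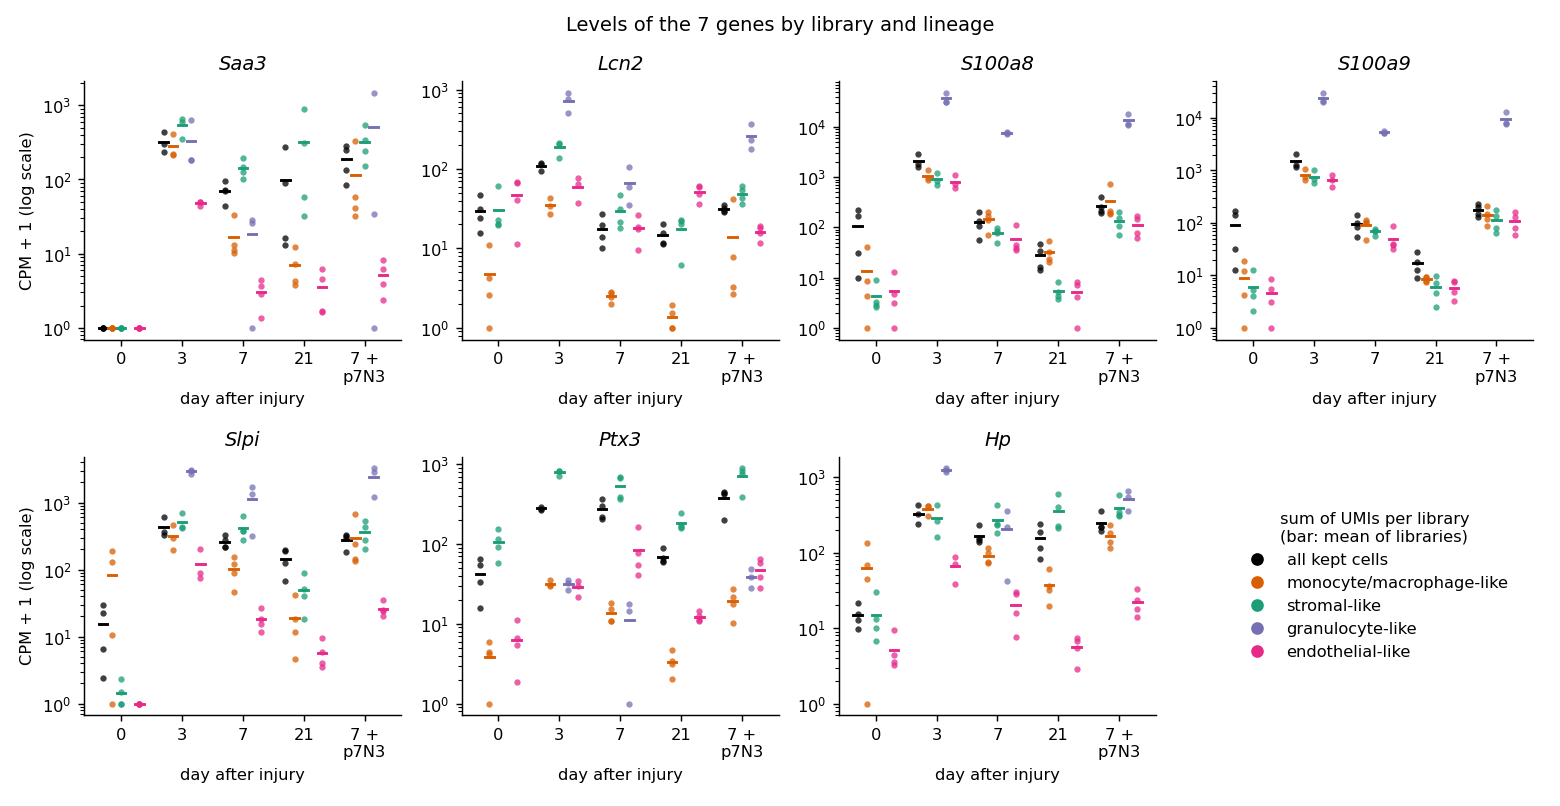
Level of each of the 7 genes (CPM + 1, log scale) by day after injury, with the libraries given p7N3 last, where each point is a library and colours mark all kept cells and 4 lineages. Saa3 sits at 0 in every day 0 library and S100a8 and S100a9 stand far highest in granulocyte-like cells, while Ptx3 is highest in stromal-like cells.

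The alarmin genes S100a8 and S100a9 had their highest level of all lineages in granulocyte-like cells at day 3, at day 7 and with p7N3. S100a8 measured 31902, 48133 and 31838 CPM in granulocyte-like cells of the 3 day 3 libraries, and S100a9 19950, 30237 and 20693 CPM. At day 7, in the 3 libraries with at least 10 such cells (replicates 1, 3 and 4), S100a8 measured 7973, 7432 and 7520 CPM and S100a9 5674, 5211 and 5140 CPM. Every day 3 library was thus far above every day 7 library in the lineage of this name. For S100a8 the averages were 37291 ± 9389 against 7641 ± 290.2 CPM. The lineage joined subclusters whose mix differed by group. A subcluster that scored highest on the monocyte/macrophage markers had 31 of 315 cells at day 3. It had 36 of 61 at day 7 and 41 of 102 with p7N3. Another, led by Retnlg and Asprv1, had 138, 2 and 8. The part of this mix in differences of the lineage between groups was not tested. Day 0 had 14 granulocyte-like cells in all, too few for a sum, yet they held 92.2% of the S100a8 UMIs of a library on average (81.1% in the lowest library). At day 3, granulocyte-like cells were 5.65% of cells and held 54.3% of S100a8 UMIs. Monocyte/macrophage-like cells held 23.9% there and stromal-like cells 14.1%. At day 7 the order was another, with 28.6% of S100a8 UMIs in stromal-like, 24.4% in monocyte/macrophage-like and 13.5% in granulocyte-like cells. With p7N3 these lineages held 23.6%, 25.8% and 21.4%, and at day 21 5.94%, 12.2% and 54.5%. The 54.5% rests on 8 granulocyte-like cells in all libraries of day 21, too few for a sum. The stromal-like and monocyte/macrophage-like lineages had many more cells than the granulocyte-like one. In day 7 replicate 1, a single keratinocyte-like cell held 1665 of the library's 6796 S100a8 UMIs and 1092 of its 4754 S100a9 UMIs. S100a8 measured 716, 605 and 1088 CPM in endothelial-like cells of day 3 and 824, 686 and 1230 CPM in stromal-like cells, and in monocyte/macrophage-like cells, of which classical monocytes do express it, 957, 879 and 1405 CPM. In each of the 3 lineages, the replicate with the highest level was replicate 3, which also had the most granulocyte-like cells (154 against 79 and 82).

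The level of these genes outside granulocyte-like cells was set beside free RNA. Given as a percent of the granulocyte-like level of the same library, the median S100a8 level at day 3 was 2.24% in endothelial-like cells, 2.27% in pericyte/smooth muscle-like cells, 2.58% in stromal-like cells and 3.00% in monocyte/macrophage-like cells. Retnlg, a neutrophil gene and no member, gave 2.38% to 2.90% over the same lineages. The ratio of S100a8 to Retnlg UMIs at day 3 was 8.57 in granulocyte-like, 8.44 in monocyte/macrophage-like, 8.21 in pericyte/smooth muscle-like, 7.43 in endothelial-like and 7.12 in stromal-like cells, whereas S100a9 per S100a8 was 0.637 in granulocyte-like cells and 0.747 to 0.837 elsewhere. The ratio to Retnlg was less uniform over these lineages at day 7 and with p7N3. At day 7 it was 22.1 in granulocyte-like, 68.3 in monocyte/macrophage-like, 40.4 in stromal-like and 122 in endothelial-like cells, the last on 5 Retnlg UMIs. Pericyte/smooth muscle-like cells had 86.1 on 9 Retnlg UMIs. With p7N3 it was 21.1 in granulocyte-like, 53.7 in monocyte/macrophage-like, 23.9 in stromal-like, 25.5 in endothelial-like and 26.6 in pericyte/smooth muscle-like cells. The monocyte/macrophage-like ratio was the highest of these with p7N3 but not at day 7. In replicate 1 with p7N3, 3910 of the 6104 S100a8 UMIs of that lineage lay in the cells led by Csf3 and Serpinb2, which are described below. With each cell thinned to 1500 UMIs, 71.1% of endothelial-like cells held an S100a8 UMI at day 3 (100% before thinning, median depth 22665 UMIs) and 51.2% of erythrocyte-like cells did (100%, 11264.5 UMIs), against 99.7% of granulocyte-like cells (100%, 7948 UMIs). No day 3 cell of these lineages was left out by the thinning. The shares of 69.2% in stromal-like (99.9% before thinning, 35030.5 UMIs) and 77.2% in monocyte/macrophage-like cells (99.9%, 9639 UMIs) stood on either side of that of endothelial-like cells. The stromal-like share lay below it. The part of free RNA in the stromal-like and monocyte/macrophage-like shares was not tested.

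**Figure D2:**
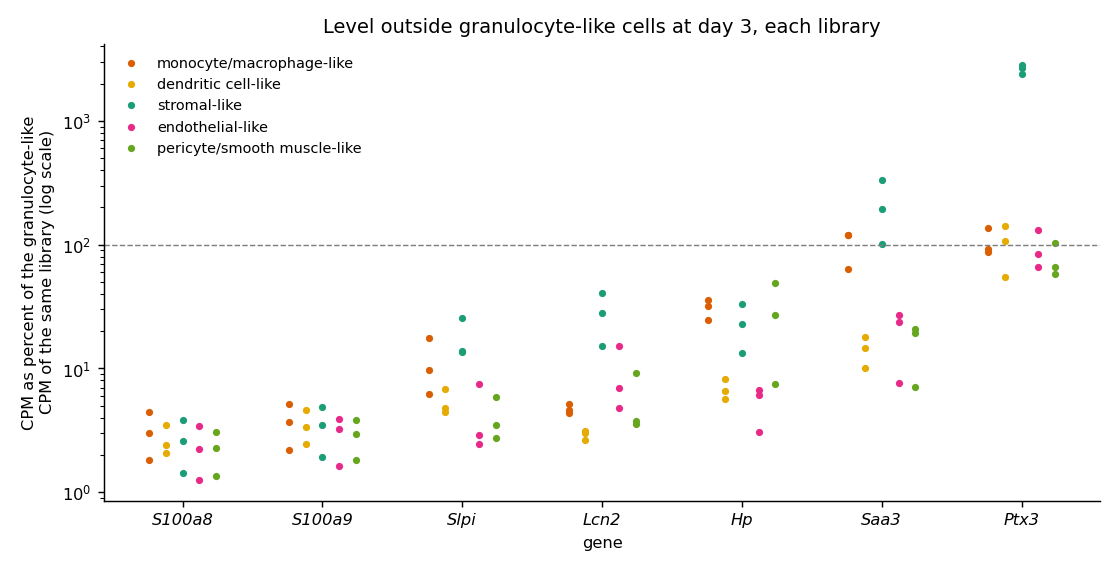
Level of each gene outside granulocyte-like cells at day 3, as a percent of the granulocyte-like CPM of the same library (log scale), where each point is a library, colours mark lineages and the dashed line is 100%. S100a8 and S100a9 lie between 1.26% and 5.18% in the endothelial-like and monocyte/macrophage-like cells, while stromal-like cells lie above 100% for Saa3 and Ptx3.

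The other 5 genes did not share that single ratio at day 3. The stromal-like level was a median of 13.9% of the granulocyte-like one for Slpi, 28.0% for Lcn2, 22.9% for Hp, 195% for Saa3 and 2678% for Ptx3. Empty droplets could be read in day 0 replicate 1 alone, whose matrix kept 367171 barcodes of at most 100 UMIs, with 3798619 UMIs between them. In these, S100a8 measured 92.7 CPM and S100a9 120 CPM, against 166 and 143 CPM in the kept cells. Ptx3 measured 58.2 CPM in the empty barcodes, Slpi 22.9, Hp 12.4 and Lcn2 11.1, and Saa3 had 0 UMIs there as in the cells. All 6 genes found in the cells of that library were thus present in its empty barcodes as well, each below its level in the cells.

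Lcn2 was shared between granulocytes, stroma and lymphatic vessels. In granulocyte-like cells of day 3 it measured 501, 765 and 909 CPM, and at day 7 58.5, 104 and 33.9 CPM. In stromal-like cells, the 4 libraries of day 0 gave 18.4, 22.0, 59.5 and 19.5 CPM and the 3 of day 3 gave 204, 214 and 138 CPM. These groups did not overlap, and the ratio of their means was 6.21. Day 7 (45.9, 17.1, 29.9 and 20.4 CPM) and day 21 (21.6, 19.3, 5.18 and 20.8 CPM) overlapped with day 0 in stromal-like cells. In endothelial-like cells no such step was seen, with 10.4, 39.5, 65.2 and 68.3 CPM at day 0, 76.3, 36.8 and 62.9 CPM at day 3 and 57.5, 59.8, 47.1 and 35.4 CPM at day 21. Day 7 was the low point there, at 16.5, 17.9, 25.1 and 8.64 CPM. The endothelial-like signal came mostly from a fine cluster led by Ccl21a and Prox1, genes of lymphatic endothelium, in which Lcn2 measured 789 ± 90.1 CPM at day 0 (2 libraries with at least 10 such cells), 83.7 ± 37.7 at day 7 (n = 4) and 351.5 ± 98.7 at day 21 (n = 4). Endothelial-like cells held 50.5% of all Lcn2 UMIs at day 0 and 43.6% at day 21, but 7.91% at day 7. In monocyte/macrophage-like cells Lcn2 was low throughout, at 25.8, 33.7 and 41.9 CPM at day 3 and 0.983 to 1.83 CPM at day 7.

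Among the lineages, Saa3 had its highest mean in stromal-like cells at day 3, day 7 and day 21. Its level there was 0 in all 4 day 0 libraries, 603, 351 and 650.4 CPM at day 3, 147, 102, 193 and 124 CPM at day 7, and 889, 56.7, 31.1 and 313 CPM at day 21. Against the floor of 3 counts over the group, the means were at least 1079-fold, 285-fold and 650.1-fold higher than day 0. Day 3 and day 7 did not overlap, whereas the 4 libraries of day 21 reached from below the lowest of day 7 to above the highest of day 3. Monocyte/macrophage-like cells gave 214, 217 and 405 CPM at day 3, then 12.0, 10.2, 9.24 and 32.7 CPM at day 7 and 11.4, 2.76, 3.27 and 6.31 CPM at day 21. Among them, the fine cluster led by Ly6c2 and Chil3, genes of classical monocytes, had 452 ± 71.0 CPM at day 3 (n = 3), and the one led by Cd209f and Cd209g, genes of resident macrophages, 65.8 CPM. In granulocyte-like cells, Saa3 measured 180, 180 and 638 CPM at day 3. Endothelial-like cells had 42.5, 49.0 and 48.4 CPM. With cells thinned to 1500 UMIs, a Saa3 UMI was found at day 3 in 21.1% of stromal-like cells (78.8% before thinning), 19.0% of granulocyte-like (49.8%) and 14.7% of monocyte/macrophage-like cells (47.3%), against 4.12% of endothelial-like cells (54.6%), at the median depths given above. The first 3 shares were thus above that of the endothelial-like cells, and the part of free RNA in them was not tested.

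Few cells carried a large part of the stromal Saa3. The 10 highest of 190 to 372 stromal-like cells held 62.7%, 50.0% and 67.9% of its UMIs in the 3 libraries of day 3. At day 7, the 10 highest of 860 to 1326 cells held 61.2%, 52.2%, 48.8% and 45.7%. With p7N3, the 10 highest of 729 to 1095 cells held 45.4%, 46.3%, 57.3% and 35.0%. The shares were largest at day 21, where the 10 highest of 213 to 484 cells held 87.9%, 100%, 100% and 98.4%. There, 66, 4, 10 and 37 stromal-like cells in all had a Saa3 UMI, so that 100% was fixed in replicates 2 and 3. For every gene, 10 cells are also a larger part of the stromal-like cells at day 21 than at day 7. A single cell of day 21 replicate 4 held 1178 of the 2252 UMIs of its library, and a single cell of replicate 1 held 982 of 5178. The high values of those 2 libraries therefore rest on a few cells. In the fine cluster led by Crabp1 and Lrrc15, genes of activated fibroblasts, Saa3 measured 6474 ± 7279 CPM at day 21, over 2 libraries with 49 such cells between the 4 libraries, against 136 ± 101 CPM at day 7 (n = 4). Ptx3 was spread more evenly from day 3 to day 7. The 10 highest stromal-like cells held 20.6%, 17.9% and 21.9% of its UMIs at day 3. The day 7 libraries lay between 13.2% and 18.7%, and those given p7N3 between 10.3% and 16.3%. At day 21 they held 32.2%, 66%, 62.5% and 43.4%, in each library less than for Saa3.

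**Figure D3:**
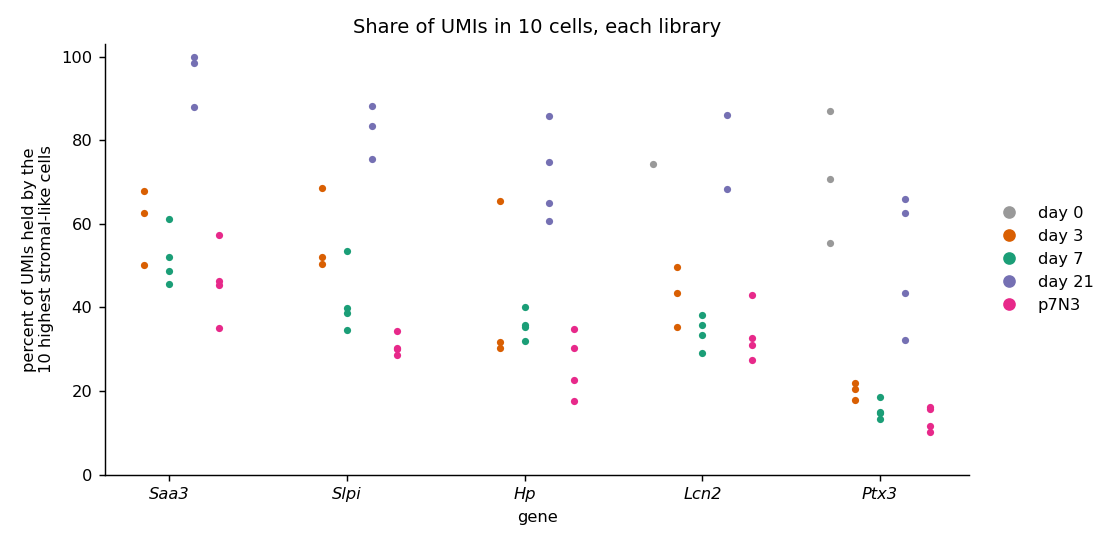
Percent of a gene's stromal-like UMIs that lay in the 10 stromal-like cells with the most, for libraries with at least 100 UMIs of the gene, where each point is a library and colours mark the group. Saa3 reaches 98.4% and 87.9% in day 21 replicates 4 and 1, while Ptx3 stays near 20.6% at day 3 and lies between 32.2% and 66% at day 21.

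Hp was carried by monocytes at day 3 and by stroma later. Monocyte/macrophage-like cells had 134, 44.3, 0 and 67.6 CPM at day 0 and 415, 304 and 419 CPM at day 3, and went to 113, 73.8, 71.6 and 97.1 CPM at day 7 and 59.6, 18.4, 31.1 and 34.7 CPM at day 21. The day 3 libraries lay above all others. The fine cluster led by Ly6c2 and Chil3 kept its Hp level, with 1022.5 ± 24.7 CPM at day 3 (n = 3) and 923 ± 98.6 CPM at day 7 (n = 4), while it made up 26.9 to 41.0% of monocyte/macrophage-like cells in the former and 3.63 to 6.63% in the latter. In stromal-like cells, Hp measured 5.67, 9.08, 29.5 and 12.0 CPM at day 0, 264, 162 and 431 CPM at day 3, 231, 183, 427 and 241 CPM at day 7 and 596, 213, 224 and 399 CPM at day 21. No library after injury came down to the range of day 0, but these sums rest in part on few cells. The 10 highest stromal-like cells held 30.4%, 31.7% and 65.5% of the Hp UMIs at day 3. At day 7 they held 31.9%, 40.2%, 35.3% and 35.9%. They held 65.0%, 85.7%, 74.9% and 60.6% at day 21, where a single cell of replicate 2 held 385 of 596 UMIs. Stromal-like cells held 27.1% of Hp UMIs at day 3 but 69.0% at day 7 and 58.3% at day 21. Pericyte/smooth muscle-like cells had 8.51, 0, 0 and 0 CPM at day 0, 85.9, 598 and 353 CPM at day 3, then 113, 102, 46.2 and 61.7 CPM at day 7, below every stromal-like value of that day, and 375, 332, 50.7 and 511 CPM at day 21. Granulocyte-like cells had 1153, 1226 and 1301 CPM at day 3 and 351, 41.5 and 217 CPM at day 7.

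Ptx3 was a stromal gene on every day. It measured 155, 57.1, 116 and 91.7 CPM in stromal-like cells of day 0, 824, 721 and 835 CPM at day 3, 691, 391, 668 and 371 CPM at day 7 and 241, 159, 172 and 163 CPM at day 21. All day 3 and day 7 libraries stood above the others, and each library of day 21 stood above each of day 0. Stromal-like cells held 93.8% of Ptx3 UMIs at day 0, 92.7% at day 3, 82.6% at day 7 and 67.6% at day 21. Monocyte/macrophage-like cells, in which Ptx3 is inducible in culture, had 31.0 CPM at day 3 and 12.8 CPM at day 7 on average. The fine cluster led by Has1 and Tnfaip6, which make hyaluronan and the protein that joins it to Ptx3, held Ptx3 at 537 ± 158 CPM at day 0 and 1580 ± 81.8 and 1723 ± 175 CPM at day 7 and day 21 (n = 4 each). The cluster led by Gzme and Sfrp1, absent at day 0, had 1503 ± 413 CPM at day 7. Lymphatic endothelium, the cluster led by Ccl21a and Prox1, had 381 ± 127 CPM at day 7 against 21.0 CPM at day 0.

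Slpi was found in stroma at day 3 and day 7, and most of its UMIs lay in chondrocyte-like and tenocyte-like cells at day 21. At day 3, stromal-like cells held 14439 of its UMIs, monocyte/macrophage-like cells 12683 and granulocyte-like cells 8083. Stromal-like cells had 0.472, 1.3, 0 and 0 CPM at day 0, or 2 UMIs in 4 libraries, and 412, 428 and 692 CPM at day 3. They stood at 377, 372, 620.2 and 278 CPM at day 7 and at 50.0, 39.6, 17.1 and 88.9 CPM at day 21, so that day 21 lay below all libraries of day 3 and day 7 and above all of day 0. A single stromal-like cell held 1879 of 5204 Slpi UMIs in day 3 replicate 3, and another 2530 of 9592 in day 7 replicate 3. Monocyte/macrophage-like cells varied at day 0 (187, 129, 0 and 9.65 CPM) and had 294, 193 and 469 CPM at day 3. Granulocyte-like cells had 3009.8, 3065 and 2682 CPM at day 3 and 1362, 311 and 1702 CPM at day 7. At day 21, chondrocyte-like cells had 495 ± 257 CPM (n = 4) and held 57.2% of all Slpi UMIs, and tenocyte-like cells had 170 ± 72.7 CPM and held 31.5%. At day 7, summed over the group, 67 chondrocyte-like cells had 1242 CPM and the tenocyte-like cells 221 CPM. Chondrocyte-like cells were on average 0.478% of cells at day 7 and 10.5% at day 21. Both names depended on the clustering. The tenocyte-like cluster scored highest on the stromal markers and the chondrocyte-like cluster on the tendon markers. At resolution 2, a cluster led by Angptl1, Nov and Mgp, with 597 cells of day 21, was named stromal-like. The tenocyte-like clusters then had 66 and 50 cells of that day, the latter led by Chad and Cilp2. The chondrocyte-like cluster then had 730. Within the stroma, the small fine cluster led by Cfd and Prg4 (186 cells in all) had 2930 ± 148 CPM at day 3 and 6146 ± 7817 CPM at day 7, in 2 libraries each. The cluster led by Gzme and Sfrp1 had 790.5 ± 389 CPM at day 7 (n = 4), and that led by Has1 and Tnfaip6, the highest in Ptx3, had 24.1 CPM. The clusters highest in Slpi and in Ptx3 were thus different ones.

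**Figure D4:**
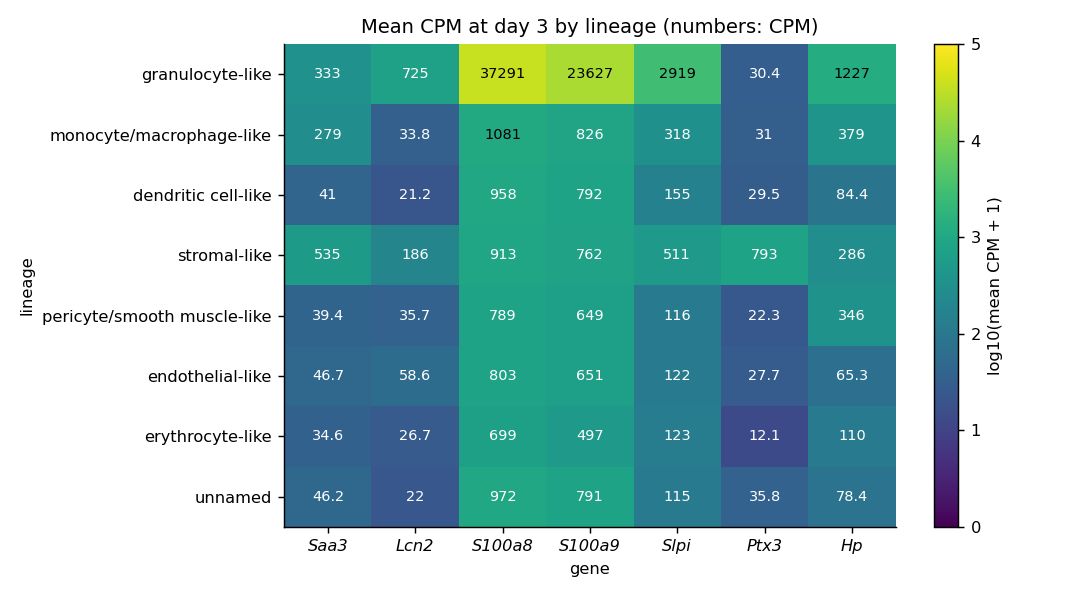
Mean CPM over the day 3 libraries of each of the 7 genes (columns) in each lineage with at least 10 cells (rows), printed in the cell and shaded by log10(mean CPM + 1). Granulocyte-like cells lead for S100a8, S100a9, Slpi, Lcn2 and Hp, and stromal-like cells lead for Saa3 and Ptx3.

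A small set of monocyte/macrophage-like cells led by Csf3 and Serpinb2 held several of the genes at once. It counted 244 cells, of which 127 were of day 3 (18, 18 and 91 by replicate), 15 of day 7 and 102 of p7N3 (67, 11, 1 and 23), and none of day 0 or day 21. At day 3 these cells had 1003 ± 1258 CPM of Saa3, 2618 ± 457 CPM of Slpi and 779 CPM of Hp (n = 3), and their S100a8 level of 1570.5 ± 484 CPM was above the 1178 CPM of the cluster led by Ly6c2 and Chil3. With p7N3, in the 3 libraries with at least 10 of them, S100a8 reached 4717 ± 3561 CPM while S100a9 was at 353 ± 246 CPM. The ratio of S100a9 to S100a8 UMIs was accordingly 0.0596, 0.130 and 0.0383 in replicates 1, 2 and 4 with p7N3. It was 0.680, 0.726 and 0.684 in granulocyte-like cells of replicates 1, 2 and 3, and 0.571 to 0.775 in the remaining monocyte/macrophage-like cells of the 4 libraries. At day 3 the same cells had ratios of 0.595, 0.736 and 0.555. At day 7 only replicate 4 had at least 10 of them, namely 10 cells with a ratio of 0.481 on 54 S100a8 UMIs. In these p7N3 cells S100a8 thus stood in a larger excess over its partner gene than in the granulocyte-like or the remaining monocyte/macrophage-like cells.

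Over 163 sums of a library and a lineage, the genes most like each member were listed by Pearson's r of log2(CPM + 1) among 8664 genes. The sums share libraries and free RNA, so r is a description. S100a8 and S100a9 were each other's nearest (r = 0.953), followed for S100a8 by Irg1 (0.877) and Asprv1 (0.875), both led by granulocyte-like clusters. Slpi and Hp were nearest to each other (0.799), and Slc16a3 (0.785) and S100a8 (0.776) came next for Slpi, Prdx5 (0.791) and Ptgs2 (0.721) for Hp. Saa3 was nearest to Cxcl5 (0.730), a neutrophil-attracting chemokine, then to Hp (0.718) and Slpi (0.717). Lcn2 was nearest to the neutrophil genes Gm5483 (0.672), Stfa2l1 (0.662) and Retnlg (0.660). Ptx3 was nearest to the stromal genes Sfrp2 (0.844), Timp1 (0.794) and Prg4 (0.790), and to none of the other members.

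Other genes of the response were tested between days in edgeR (adjusted p of 0.05 over all genes tested). In monocyte/macrophage-like cells of day 3 against day 0, 52.8% of genes tested were called. Of 16 inducers and signalling genes, 13 were tested, of which 5 were higher and 5 lower, with a median log2 fold change of 0.21 beside -0.01 over all genes. The cytokine genes Il1b (log2 fold change 2.25 ± 0.16, adjusted p = 2.31e-07), Osm (2.11) and Tnf (1.67) rose, and Il6ra (-1.50), Il6 (-1.41) and Il6st (-1.14), of the interleukin 6 system, fell. Neutrophil granule and antimicrobial genes had 5 higher and 1 lower of 8 tested (median 0.89), led by Wfdc21 (6.51), Prtn3 (2.97) and Mmp8 (2.47). The neutrophil gene Retnlg moved with them in the summed cells of this lineage, at 0.667 CPM (1 UMI) at day 0 and 126 CPM at day 3, and the part of free RNA in these values was not tested. Other alarmins and receptors had 5 higher and 4 lower of 13 (median 0.09), with the formyl peptide receptor Fpr1 (5.06) rising and Cd163, the receptor of the haptoglobin-haemoglobin complex, falling by 2.81 on the log2 scale, from 699 ± 177 to 95.1 ± 32.6 CPM. Other acute phase genes had 2 higher (C3 1.12, Cd14 0.69) and 2 lower (Cp -4.14, Mt1 -0.83) of 6 tested (median -0.33).

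At day 7 and day 21 against day 0, 35.3% and 26.2% of genes were called in monocyte/macrophage-like cells. The inducers had 3 higher and 6 lower of 13 at day 7 (median -0.18) and 1 higher and 6 lower of 13 at day 21 (median -0.34). Il1b was still raised at day 7 (1.04), as was Osm (1.57). The acute phase list had 1 higher and 4 lower of 7, then 0 higher and 3 lower of 6. The granule and antimicrobial list had 3 higher and 1 lower of 7, then 3 higher and 0 lower of 4, with Anxa1 (1.43 and 1.03) and Wfdc17 (0.96 and 0.73) among the former on both days. Alarmins and receptors had 4 and 4 of 14, then 2 and 2 of 10, and Cd163 remained low (-4.44 and -3.01).

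In stromal-like cells, 66.2% of genes were called at day 3 against day 0, 54% at day 7 and 30.3% at day 21. The inducers had 10 higher and 2 lower of 15 at day 3 (median 0.63 beside 0.00 over all genes), 2 and 5 of 15 at day 7 (median -0.11), and 1 and 5 of 13 at day 21 (median -0.08). Il1b (5.97) and Tnf (4.84) rose at day 3 and Osm went from 0 UMIs to at least 20.8-fold the floor. In the summed cells of this lineage the neutrophil gene Retnlg went from 0.331 CPM (2 UMIs) to 122 CPM. The part of free RNA in the cytokine values was not tested. Il6ra (-2.19) and the feedback gene Socs3 (-0.98) fell. Among alarmins and receptors, with 9 higher and 4 lower of 16 at day 3 (median 0.71), 6 and 5 of 14 at day 7 and 6 and 2 of 13 at day 21, Il1rl1, the receptor of the alarmin interleukin 33, rose most on all 3 days. It went from 0.188 CPM at day 0 to 134.5 ± 41.3 CPM at day 3 and 37.6 ± 18.9 CPM at day 21. Monocyte/macrophage-like cells had 6.28 CPM of Il1rl1 at day 3. The acute phase list was even, with 5 higher and 5 lower of 10 at day 3 (median 0.04), 3 and 6 of 10 at day 7 and 1 and 3 of 9 at day 21. The lipopolysaccharide receptor Cd14 rose (3.56) and the complement gene C3 fell from 1083 ± 75.4 to 98.0 ± 25.2 CPM, together with Lbp (-1.91). Granule and antimicrobial genes had 5 higher and 1 lower of 6 at day 3 (median 3.58), 6 and 1 of 8 at day 7 and 2 and 1 of 3 at day 21. The former included Lyz2 at 948 ± 44.8 CPM and Wfdc17 at 387 ± 9.10 CPM at day 3, genes of myeloid cells that stood at 15027 and 4218 CPM in monocyte/macrophage-like cells of the same day. The part of free RNA in these stromal values was not tested.

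p7N3 against day 7 asked whether activating CD47 changed the response, and it is the test of the members. No member passed the threshold in any lineage. With edgeR (quasi-likelihood), the share of genes called in monocyte/macrophage-like cells was 0.00917% of 10909, namely the gap junction gene Gja1 (log2 fold change 1.00 ± 0.12, adjusted p = 0.0322), which was named after its value was seen. In granulocyte-like cells 0% of 1725 genes were called, in stromal-like cells 0% of 13195 and over all kept cells 0% of 14882. At an unadjusted p under 0.05, 866, 161, 1353 and 1827 genes passed in the 4 comparisons in that order, and DESeq2 called 19, 2, 81 and 158. The members were nonetheless mostly on the higher side. All 7 had a log2 fold change above 0 in monocyte/macrophage-like cells (median 1.18) and over all kept cells (median 0.88), as had the 5 tested in granulocyte-like cells (median 1.10), and 6 of 7 in stromal-like cells (median 0.74), beside medians between -0.00327 and 0.0059 over all genes. At an unadjusted p under 0.05 stood 6 of 7 members in monocyte/macrophage-like cells, beside 866 of all 10909 genes. Over all kept cells it was 5 of 7, beside 1827 of 14882. In granulocyte-like cells it was 5 of 5, beside 161 of 1725, and in stromal-like cells 4 of 7, beside 1353 of 13195. The 7 genes share cells and a response and are not independent of each other.

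In monocyte/macrophage-like cells, Saa3 measured 325, 40.1, 56.3 and 31.4 CPM with p7N3 against 12.0, 10.2, 9.24 and 32.7 CPM at day 7 (log2 fold change 2.79 ± 0.71, adjusted p = 0.360). Lcn2 measured 40.3, 1.67, 6.74 and 2.27 CPM against 1.77, 1.41, 0.983 and 1.83 CPM (3.10 ± 0.94, adjusted p = 0.406). Replicate 1 with p7N3 stood far above the rest for both, and without it the log2 fold changes were 1.36 and 1.13. S100a8 also had its highest value there (734, 214, 191 and 180.5 CPM against 166, 69.6, 142 and 204 CPM, log2 fold change 1.18 ± 0.44, and 0.41 without that library). Its 67 cells led by Csf3 and Serpinb2, 5.37% of its monocyte/macrophage-like cells, held 71.9% of the Saa3, 84.5% of the Lcn2, 74.5% of the Slpi and 64.1% of the S100a8 UMIs, but 13.4% of those of S100a9. Without those cells, the library had 96.5 CPM of Saa3, 6.61 of Lcn2, 179 of Slpi and 279 of S100a8. Slpi measured 665, 242, 141 and 132 CPM with p7N3 against 119, 89.2, 45.2 and 151 CPM (1.53 ± 0.48, adjusted p = 0.425, and a log2 fold change of 0.75 without replicate 1 with p7N3). Hp was the member whose groups did not overlap, at 182, 139, 233 and 113.5 CPM against 113, 73.8, 71.6 and 97.1 CPM (0.89 ± 0.20, adjusted p = 0.345), where 2.61% of genes had every p7N3 library above every day 7 library. In the cluster led by Ly6c2 and Chil3, Hp measured 1311 ± 156 CPM with p7N3 against 923 ± 98.6 CPM, and that cluster made up 6.29 to 15.2% of the lineage against 3.63 to 6.63%. The log2 fold changes of S100a9 and Ptx3 were 0.61 ± 0.28 and 0.48 ± 0.27.

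**Figure D5:**
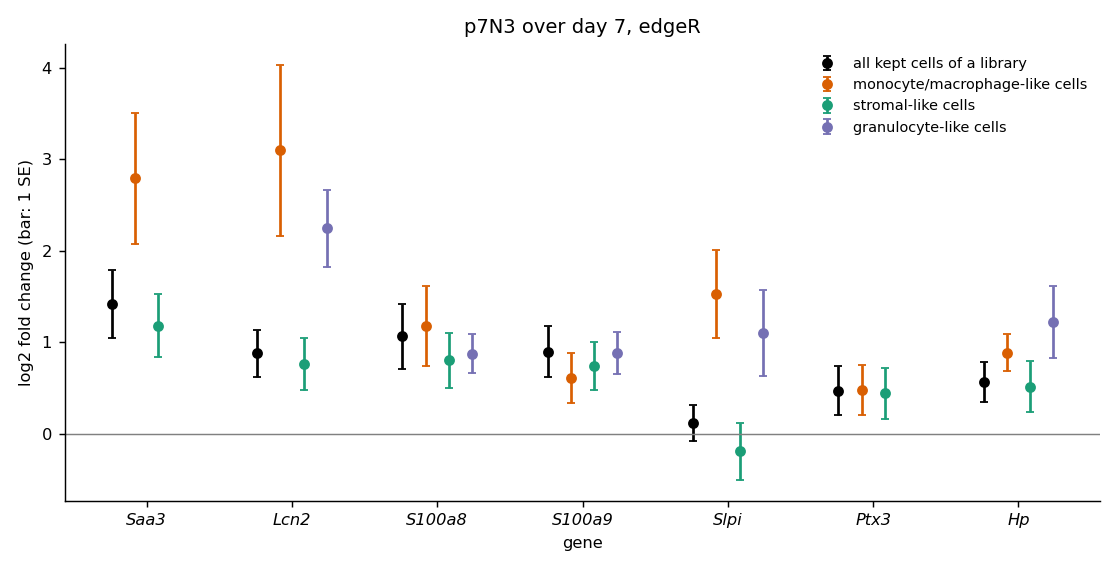
Log2 fold change of p7N3 over day 7 in edgeR for each of the 7 genes (bars: 1 SE), with colours for 3 lineages and all kept cells. Nearly all points lie above 0, the highest being Lcn2 (3.10) and Saa3 (2.79) in monocyte/macrophage-like cells, and none passed the adjusted threshold.

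In granulocyte-like cells, 3 libraries of each group had at least 10 cells. S100a8 measured 11754, 18032 and 10988 CPM with p7N3 (replicates 1, 2 and 3) against 7973, 7432 and 7520 CPM at day 7 (0.88 ± 0.22, adjusted p = 0.291), and S100a9 7995, 13083 and 7517 CPM against 5674, 5211 and 5140 CPM. Lcn2 measured 370.5, 175 and 228 CPM against 58.5, 104 and 33.9 CPM (2.25 ± 0.43, adjusted p = 0.201). Hp measured 357, 660.5 and 537 CPM against 351, 41.5 and 217 CPM. In these 4 genes each p7N3 library lay above each day 7 library, as it did in 6.9% of the genes tested, and Slpi (2822, 3231 and 1193 CPM against 1362, 311 and 1702 CPM) overlapped. Saa3 and Ptx3 were too low to be tested, although Saa3 reached 1475 CPM in replicate 1 with p7N3, beside 0 and 33.3 CPM in the other two. These sums rest on 10 to 42 cells each. The mix of subclusters in this lineage also differed between the groups, as given above, and its part in these values was not tested. Granulocyte-like cells were 0.907 ± 0.543% of cells with p7N3 and 0.476 ± 0.282% at day 7 (n = 4 each), and the difference of 0.431 points had p = 0.171 in an exact permutation test (two-sided, smallest possible p 0.0286).

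In stromal-like cells, Saa3 measured 339, 152, 546 and 241 CPM with p7N3 against 147, 102, 193 and 124 CPM (1.18 ± 0.34, adjusted p = 0.344), and Lcn2 35.4, 53.1, 59.6 and 41.7 CPM against 45.9, 17.1, 29.9 and 20.4 CPM (0.76 ± 0.28, adjusted p = 0.415). Ptx3 measured 389, 828, 887 and 759 CPM against 691, 391, 668 and 371 CPM (0.45 ± 0.28), and Hp 313, 306, 576 and 341 CPM against 231, 183, 427 and 241 CPM (0.51 ± 0.28). Slpi was the exception to the direction, at 271, 199, 535 and 431 CPM against 377, 372, 620.2 and 278 CPM (-0.19 ± 0.31, adjusted p = 0.875). In 0 of the 7 genes did every p7N3 library exceed every day 7 library, which 2.3% of genes did. In the cluster led by Gzme and Sfrp1, 18.1 to 30.3% of stromal-like cells with p7N3 and 13.5 to 20% at day 7, Saa3 measured 619 ± 527 CPM against 293 ± 92.6 CPM and Ptx3 1424 against 1503 CPM. S100a8 measured 204, 104, 151 and 69.5 CPM against 95.9, 48.5, 84.6 and 75.7 CPM in stromal-like cells (0.80 ± 0.30, adjusted p = 0.415), with a median of 1.37% and 1.14% of the granulocyte-like level. The part of free RNA in this difference was not tested.

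Over all kept cells, Lcn2 was the member in which every p7N3 library lay above every day 7 library, as in 3.23% of genes (30.4 ± 2.85 against 16.6 ± 7.36 CPM, log2 fold change 0.88 ± 0.26, adjusted p = 0.298). Saa3 had 186 ± 92.8 against 69.4 ± 20.8 CPM (1.42 ± 0.37, adjusted p = 0.290) and S100a8 262 ± 92.7 against 125 ± 61.9 CPM (1.07 ± 0.36, adjusted p = 0.328). Ptx3, Hp and Slpi differed by 0.47 ± 0.27, 0.57 ± 0.22 and 0.12 ± 0.20. In replicate 4 with p7N3, 44 unnamed cells held 2238 of the S100a8 UMIs, 39.3% of the library, of which 1257 lay in a single cell, and 1282 S100a9 UMIs, of which 726 did. On the other side, a single keratinocyte-like cell held 1665 of the 6796 S100a8 UMIs of day 7 replicate 1. No gene of the other lists was called in any of the 4 comparisons. Of the acute phase list 0 of 10, 4, 13 and 15 tested genes were called in monocyte/macrophage-like, granulocyte-like, stromal-like and all kept cells, of the alarmins and receptors 0 of 17, 9, 16 and 18, of the granule genes 0 of 9, 6, 9 and 13, and of the inducers 0 of 16, 9, 15 and 16. Their median log2 fold changes were 0.34, 0.14, 0.21 and 0.18 for the 4 lists in monocyte/macrophage-like cells.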

How the data were processed

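Droplet (10x Genomics 3′ v2) libraries were aligned by the authors with Cell Ranger. The paper names the mm10 genome, and the submitters' processing notes name mm10 or GRCh38. The authors deposited UMI counts per gene and barcode, not normalized, for 19 libraries. A barcode counted as a cell from 500 genes upwards and up to 25% mitochondrial UMIs. Leiden clustering used scanpy 1.11.5 with leidenalg 0.10.2 in Python 3.11.15 (2000 variable genes without the 7 genes and the 4 lists, 30 components, 20 neighbours, resolution 0.8), and finer clusters were taken at a resolution of 2. A cluster was named when at least 3 markers of a list were found in at least 10% of its cells. Doublets were removed only in an alternative.

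Counts were summed per library and lineage with at least 10 cells, and CPM are over all UMIs of a sum. For shares of cells, each cell was thinned to 1500 UMIs, which left out 298 cells. Sums were compared with edgeR 4.0.16 in R 4.3.3 (quasi-likelihood, TMM factors, filterByExpr, two-sided, Benjamini-Hochberg over all genes tested, threshold 0.05). Alternatives were DESeq2 1.42.0, RLE factors, no filter, at least 10 UMIs in every library, a replicate block, each library left out, at most 10% mitochondrial UMIs, removal of the top 3.9% of Scrublet scores and resolution 2. The fits were tested on simulated data. The members and the lists were chosen with earlier results of these data known. Besides the members, the 3 genes most like each member and up to 3 called genes per list and direction are named.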

Additional observations from a re-analysis of the deposited data

Results flagged for a closer look

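In groups of 4 libraries, a library was marked when its gap to the nearest of the others was too large a part of the group's range by Dixon's criterion at 95%. This held for 19 of 137 groups, where chance marks about 1 in 20.

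With p7N3, replicate 1 stood apart in monocyte/macrophage-like cells for Saa3 (325 CPM, the next 56.3), Lcn2 (40.3 CPM, the next 6.74) and S100a8 (734 CPM, the next 214), and over all kept cells for Ptx3 (198 CPM, the next higher 422). Replicate 3 with p7N3 stood apart for Hp, at 576 CPM in stromal-like cells (the next 341) and 358 CPM over all kept cells (the next 218).

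At day 7, replicate 4 was high for Saa3 in monocyte/macrophage-like cells (32.7 CPM, the next 12.0), and replicate 1 was high in endothelial-like cells for S100a8 (109.8 CPM, the next 44.2) and S100a9 (87.7 CPM, the next 37.9).

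At day 21, replicate 1 was high for Ptx3 in stromal-like cells (241 CPM, the next 172) and, in pericyte/smooth muscle-like cells, for Saa3 (174 CPM, the next 1.42) and Ptx3 (49.2 CPM, the next 8.33). Replicate 3 was low for Lcn2 in stromal-like cells (5.18 CPM, the next 19.3).

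At day 0, Lcn2 was high in stromal-like cells of replicate 3 (59.5 CPM, the next 22.0) and S100a8 in those of replicate 2 (7.78 CPM, the next 2.25). In pericyte/smooth muscle-like cells of day 0 the values were low, with S100a8 at 26.3 CPM in replicate 2 (the next 4.26), Lcn2 and Ptx3 at 4.50 CPM each in replicate 4 and Hp at 8.51 CPM in replicate 1, all the others being 0 for these last 3 genes.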

How the results depend on the processing

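Of the counts of genes called for p7N3 against day 7, most moved with the test used, and the cause was not tested. In monocyte/macrophage-like cells, where 1 gene was called, DESeq2 called 19, no filter 39, the replicate block 2, and removal of the top 3.9% of Scrublet scores 0. In granulocyte-like cells (0 called) these were 2 with DESeq2, 47 with no filter and 22 with the block, in stromal-like cells (0) 81 with DESeq2 and 10 with no filter, and over all kept cells (0) 158 with DESeq2. An alternative chosen after the data were seen, leaving out the cells led by Csf3 and Serpinb2, called 0 in monocyte/macrophage-like cells. With each library left out, 0 to 4 were called in monocyte/macrophage-like cells (4 without p7N3 replicate 4, 2 without p7N3 replicate 1, 0 without any other), 0 to 4 in granulocyte-like cells (4 without p7N3 replicate 3, 0 without any other) and 0 to 0 in the other 2 comparisons. The share of granulocyte-like cells then differed by 0.183 to 0.615 points. Calls against day 0 stayed within 1.5 times under all alternatives run.

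Members passed the threshold under a few alternatives. In monocyte/macrophage-like cells Hp did with DESeq2 (adjusted p = 0.0139) and no filter (0.0132; over all alternatives 0.0132 to 0.540), and with no filter Saa3 (0.0156; up to 0.584) and Lcn2 (0.0469; up to 0.692). In granulocyte-like cells all 5 tested did with no filter, and Lcn2 did with DESeq2 (0.0444; 4.99717e-06 to 0.687). With a library left out, Slpi in stromal-like cells ranged from -0.46 to 0.083 without a call, changing sign without day 7 replicate 3 (0.083) or p7N3 replicate 2 (0.0067), and over all kept cells it came to -0.059 without the cells led by Csf3 and Serpinb2. No other member changed sign. Of the mean CPM, 12 moved by more than 1 SD, as with Slpi in stromal-like cells of day 21 (87.9 instead of 48.9 CPM at resolution 2).

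Replicate numbers did not pair libraries. The correlation of same-numbered libraries' deviations lay between -0.114 and 0.162, no comparison had every pair over 0.1, and over the 10 comparisons, in which a library recurs, 22 of 72 entries correlated best with their own number. With the replicate block, Lcn2 (adjusted p = 0.0051) and Slpi (5.48345e-06) passed in granulocyte-like cells, where the 3 libraries of each group share 2 numbers, and no member did elsewhere.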
